A study of Homo sapiens with 9 samples.

Results

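CD44, CTNND1, FGFR2, ENAH and NUMB are 5 genes whose alternative splicing differs between epithelial and mesenchymal cells, and they were chosen by name. Among the 27111 genes and 58352 transcripts in the tables, they accounted for 5 genes and 50 transcripts, with 8 transcripts for CD44, 22 for CTNND1, 13 for FGFR2, 2 for ENAH and 5 for NUMB. In all, 12 of the 50 transcripts had no count in any of the 9 libraries, and 19 had more than 3 counts in every library. The cells were PC-3 (PC3), a prostate cancer line derived from a bone metastasis, grown as multicellular tumor spheroids (MTSs). NF-YA is the regulatory subunit of the CCAAT-binding transcription factor NF-Y, and its long form NF-YAl carries an exon that the short form NF-YAs lacks. The Empty group carried the empty lentiviral vector, and the NF-YAl and NF-YAs groups carried the murine cDNA of the long or the short form. All 3 lines were stably transduced and puromycin-selected, and each group had 3 libraries of stranded total RNA. The study's methods describe pooled MTSs from independent experiments, but no label ties a library to an experiment, so p-values measure only the spread between these libraries.

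Epithelial cells and mesenchymal cells often make different proteins from one gene by including or skipping exons, and the splicing factors ESRP1 and ESRP2, which are epithelial, and RBFOX2 and QKI are among the known regulators. CD44, the hyaluronan receptor, is made with variant exons in many epithelial cells and without them, as the standard form, in mesenchymal cells. CTNND1 encodes p120-catenin, which holds cadherins at the membrane, and mesenchymal cells favour the protein that starts at the first start codon (isoform 1) over the shorter isoform 3. ENAH, an actin regulator also called MENA, has an epithelial exon named 11a. FGFR2 carries either the IIIb or the IIIc exon in its ligand-binding domain, and NUMB, an endocytic adaptor that restrains Notch signaling, carries an optional exon in its phosphotyrosine-binding domain (the PTB exon) and another in its proline-rich region (the PRR exon).

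The exons on which the shares below turn are given from the GRCh37 genome, 5′ to 3′ on the strand of the gene. Capitals mark the exon and small letters the 15 intronic bases on each side, except for CTNND1, where the coding part of the exon is shown and capitals mark the start codons of isoform 1 and isoform 2. ENAH lies on the minus strand of chromosome 1 (chr1:225674467-225840844) and its coding exon 11a spans chr1:225692693-225692755, 63 nt. NUMB lies on the minus strand of chromosome 14 (chr14:73741815-73925323), with the coding PTB exon of 33 nt at chr14:73783098-73783130 and the coding PRR exon of 144 nt at chr14:73745989-73746132. CTNND1 lies on the plus strand of chromosome 11 (chr11:57520715-57587018), and the exon that holds both start codons spans chr11:57558857-57559145. The lengths of these ENAH and NUMB exons are multiples of 3, so skipping them keeps the reading frame.
ENAH exon 11a: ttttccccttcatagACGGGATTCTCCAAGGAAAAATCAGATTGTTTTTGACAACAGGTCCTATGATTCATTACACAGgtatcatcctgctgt
NUMB PTB exon: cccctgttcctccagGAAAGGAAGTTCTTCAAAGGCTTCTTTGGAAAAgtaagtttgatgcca
NUMB PRR exon: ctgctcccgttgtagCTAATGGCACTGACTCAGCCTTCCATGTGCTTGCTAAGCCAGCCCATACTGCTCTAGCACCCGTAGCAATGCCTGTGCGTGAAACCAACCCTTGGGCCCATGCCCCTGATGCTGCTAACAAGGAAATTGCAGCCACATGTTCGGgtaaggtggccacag
CTNND1 start codons: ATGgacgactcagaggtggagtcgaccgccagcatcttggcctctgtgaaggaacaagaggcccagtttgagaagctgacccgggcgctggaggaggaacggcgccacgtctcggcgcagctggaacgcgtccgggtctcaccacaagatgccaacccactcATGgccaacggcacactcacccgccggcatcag

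Total expected counts, RSEM's estimated counts, ranged from 18076979 to 27163976 per library. Small RNA genes (RN7SL1, RN7SL2, RN7SK, SNORD3A and RMRP) held 33.8 to 45.2% of the TPM in 8 libraries and 14.3% in NF-YAl D, and since TPM have a fixed sum, totals were compared between groups on TMM-scaled CPM. Reads were counted on human transcripts, and the CPM of NFYA was 89.2 to 96.7 for Empty, 287 to 383 for NF-YAl and 254 to 264 for NF-YAs (log2FC 1.89 and 1.51 against Empty, adjusted p = 6.41e-07 and 2.21e-06, edgeR). The share of NFYA TPM given to the transcript with exon 3 was 29.7, 62.2 and 54.7% for Empty A, B and C, 29.7, 29.5 and 66.1% for the libraries labelled NF-YAl A, B and D and 23.0, 9.02 and 22.1% for NF-YAs A, B and C. In the libraries labelled NF-YAl A and B this goes against the label of the long form, since most NFYA reads were given to transcripts without exon 3 (201 and 269 CPM, against 86.1 and 114 CPM with it). The library labelled NF-YAl D had 235 CPM with exon 3 and 119 CPM without it, as the label says, but it is also the library with the low share of small RNA genes. The share varied among the Empty libraries too, and how reads of the murine cDNA were divided between the human transcripts was not tested. NF-YAl below stands for the 3 libraries with that label, and results for it are also given with NF-YAl D as its only library, a fit in which the lone library is assumed to vary like the other groups. It was chosen after the data were seen. KRT8 (70.4 to 223 TPM) and KRT18 (212 to 423 TPM) were present, KLK3 was listed at 0 in every library, and EPCAM was no higher than 6.68 TPM. Of the markers of other cells, CD3E had at most 2 counts in a library and PECAM1 at most 2.74 TPM, while COL6A3 (20.5 to 87.1 TPM) and CD68 (14.8 to 42.0 TPM) carried most of the fibroblast and immune lists. The 6 fibroblast markers summed to 36.3 to 43.0 TPM for Empty, 21.5 to 36.4 TPM for NF-YAl and 67.0 to 87.9 TPM for NF-YAs. The 6 immune markers summed to 36.2 to 42.9, 15.2 to 42.8 and 23.6 to 26.9 TPM and the 5 endothelial markers to 2.51 to 3.07, 1.52 to 3.16 and 1.62 to 1.80 TPM, in the same order of groups. These sums are in TPM, which the low small RNA share of NF-YAl D raises for other genes. The NF-YAl ranges are therefore not compared with those of the other groups. The part of these markers in the results was not tested.

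At the level of the gene total, CD44 fell in both NF-YA lines and the other 4 genes passed no test. In TPM, which is comparable between genes, CD44 was the highest of the 5 in every library (74.7 to 159 TPM), followed by CTNND1 (58.9 to 96.0 TPM), NUMB (18.4 to 33.3 TPM), ENAH (8.99 to 22.5 TPM) and FGFR2 (0.35 to 1.11 TPM). The CPM of CD44 was 517, 538 and 530 for Empty A, B and C, 278, 310 and 296 for the libraries labelled NF-YAl A, B and D, and 340, 342 and 378 for NF-YAs A, B and C. The 3 groups did not overlap, with Empty highest and NF-YAl lowest. The CD44 total fell by 44.2% in NF-YAl (log2FC -0.84 ± 0.090 SE, adjusted p = 3.23e-05, edgeR) and by 33.1% in NF-YAs (log2FC -0.58 ± 0.090 SE, adjusted p = 0.00037, edgeR). Both changes were under the log2FC of 1 that the study set for a differentially expressed gene, so 0 of the 5 genes met that rule, beside 8.27% of all genes tested in NF-YAl against Empty and 9.34% for NF-YAs. Set against NF-YAs, NF-YAl did not pass the threshold (log2FC -0.26 ± 0.089 SE, adjusted p = 0.0534, edgeR). Without NF-YAl D, the log2FC of CD44 in NF-YAl was -0.84 (adjusted p = 3.57e-05, edgeR), and with D as the only NF-YAl library it was also -0.84 (adjusted p = 8.31e-05, edgeR). In bulk RNA, fewer cells of a type and less RNA per cell cannot be told apart.

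Of the 5 gene totals, 1 was called in each NF-YA line against Empty, where 19.6% and 22.6% of all 17108 genes tested were called for NF-YAl and NF-YAs. Between the NF-YA lines, the adjusted p of the other 4 genes ranged from 0.142 to 0.917 (edgeR). The CPM of the groups did not overlap for CD44 in each of the 3 comparisons and for CTNND1 and NUMB in NF-YAs against Empty, that is for 1, 3 and 1 of the 5 genes. Over all genes these shares were 42.4% (NF-YAl against Empty), 56.4% (NF-YAs against Empty) and 39.5% (between the NF-YA lines). CTNND1 had 323, 356 and 337 CPM for Empty A, B and C, 326, 328 and 281 CPM for the libraries labelled NF-YAl A, B and D and 293, 309 and 317 CPM for NF-YAs A, B and C. Its log2FC against Empty was -0.12 ± 0.094 (SE) in NF-YAl and -0.15 ± 0.094 in NF-YAs (adjusted p = 0.37 and 0.255, edgeR), although all NF-YAs libraries lay below all Empty libraries. ENAH had 142, 128 and 136 CPM for Empty, 150, 110 and 147 CPM for NF-YAl, with 134, 110 and 123 CPM for NF-YAs. All 3 ENAH groups overlapped, with log2FC of 0.0087 ± 0.12 and -0.14 ± 0.12 (SE) in NF-YAl and NF-YAs (adjusted p = 0.968 and 0.406, edgeR). NUMB had 63.7, 59.6 and 64.8 CPM for Empty, 68.8, 61.1 and 56.2 CPM for NF-YAl, with 68.8, 73.6 and 72.2 CPM for NF-YAs. Every NF-YAs library lay above every Empty library for NUMB, but the log2FC of 0.19 ± 0.096 (SE) did not pass the test (adjusted p = 0.143, edgeR). With D as the only NF-YAl library, CTNND1, ENAH, FGFR2 and NUMB passed no test against Empty either (log2FC -0.27, 0.13, 0.10 and -0.16, adjusted p = 0.0701, 0.448, 0.911 and 0.282, edgeR). FGFR2 rested on 16.2 to 49.7 expected counts per library, and its log2FC of -0.039 ± 0.41 and -0.11 ± 0.42 (SE) in NF-YAl and NF-YAs showed no detectable difference at this depth.

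**Figure D1:**
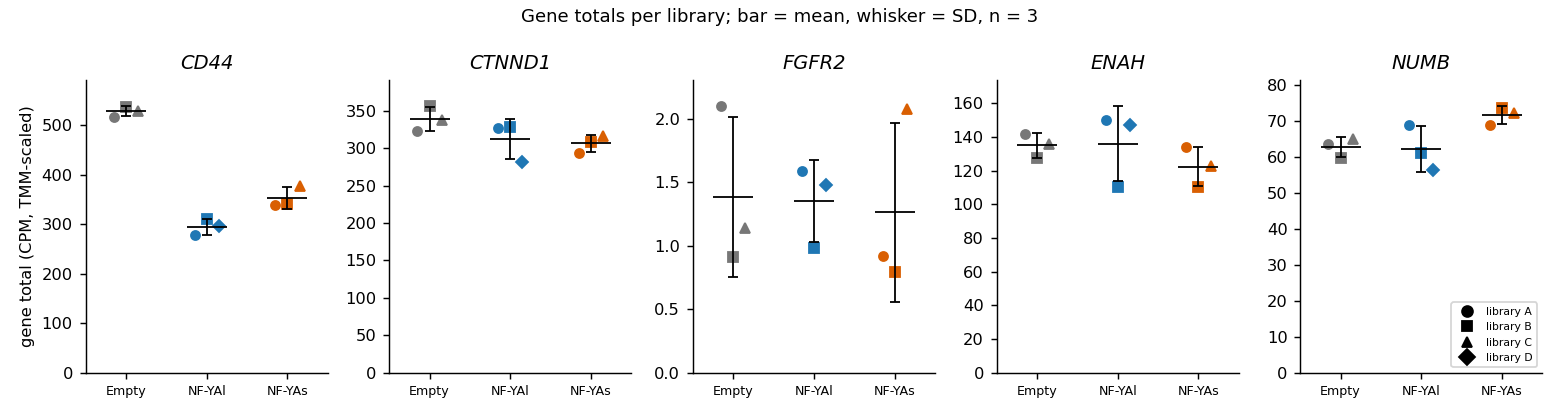
TMM-scaled CPM of each gene total (vertical axes from 0) in the 9 libraries by group, with symbols for the replicate letter, bars for the mean and whiskers for the SD (n = 3). The CD44 libraries sit at 517 to 538 CPM for Empty, 278 to 310 CPM for NF-YAl and 340 to 378 CPM for NF-YAs, and the ENAH and FGFR2 groups overlap.

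A single transcript held most of 4 of the 5 genes. The standard transcript of CD44, NM_001001391 (4589 nt), held 88.2 to 92.6% of the gene's TPM. The ENAH transcript without exon 11a, NM_018212, held 63.3 to 85.3%, and the NUMB transcript without the PTB and PRR exons, NM_001005745, held 60.5 to 78.0%. FGFR2 was read mainly from NM_001144913, at 64.0% or more of its TPM. CTNND1 was split, with 6 transcripts at a mean of 5% or more and its leading transcript NM_001085468 at 21.4 to 31.5%.

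**Figure D2:**
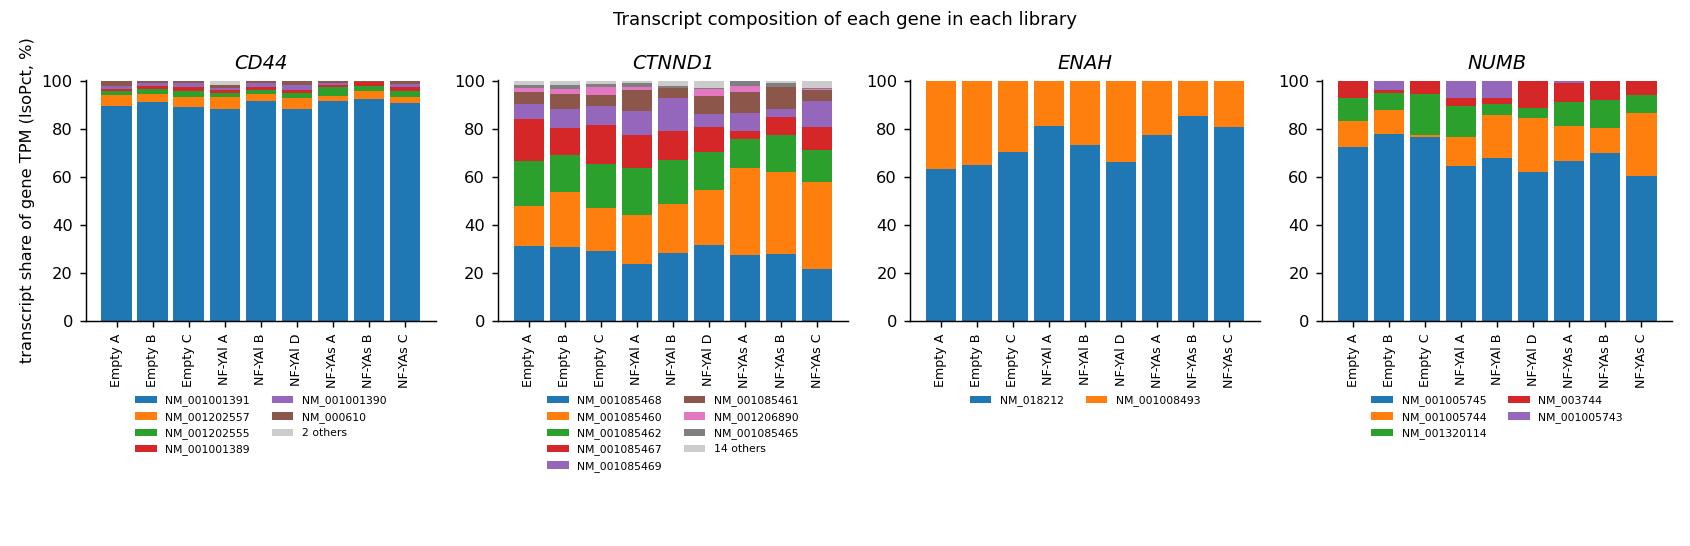
Stacked bars of the percent of the gene's TPM held by each transcript (IsoPct, vertical axis 0 to 100%) in each of the 9 libraries for CD44, CTNND1, ENAH and NUMB, with transcripts under a mean of 1% joined in grey. The lowest CD44 segment stays between 88.2 and 92.6%, and the CTNND1 segment NM_001085460 is larger in the 3 NF-YAs libraries (34.0 to 36.5%) than in the other 6 (16.9 to 23.3%).

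For CD44, on the plus strand of chromosome 11 (chr11:35160429-35253949), most of the lost CPM was that of the standard transcript, and the share with variant exons overlapped between the groups. NM_001001391 had 11219, 12492 and 12159 expected counts for Empty A, B and C, 4711, 7004 and 6471 for the libraries labelled NF-YAl A, B and D and 5806, 6438 and 7482 for NF-YAs A, B and C. Its log2FC was -0.84 ± 0.074 (SE) in NF-YAl and -0.56 ± 0.074 in NF-YAs (adjusted p = 0.00113 and 0.0038 over 34671 transcripts, edgeR). The second of these calls was lost when any 1 of the 6 libraries compared was left out (adjusted p from 0.0145 to 0.0238 for NM_001001391, edgeR), and both were lost with the replicate letter as a block (adjusted p = 0.0281 and 0.0191, edgeR). With D as the only NF-YAl library, the log2FC of NM_001001391 in NF-YAl was -0.85, and the call was lost (adjusted p = 0.0114, edgeR). Transcripts with variant exons (NM_000610, NM_001001389, NM_001001390 and NM_001202555) took 6.10, 5.47 and 7.08% of the placed TPM for Empty, 5.52, 5.42 and 7.08% for NF-YAl, with 6.49, 4.27 and 6.71% for NF-YAs. The groups overlapped, and the means differed by -0.211 percentage points in NF-YAl and -0.391 in NF-YAs (two-sided exact permutation p = 0.7 and 0.8, n = 3 per group). The sign of both differences turned when single libraries were left out (-0.747 to 0.220 points in NF-YAl and -0.836 to 0.384 in NF-YAs). As levels, transcripts with variant exons had a mean of 36.3 ± 4.67 CPM (SD, n = 3) for Empty, 19.6 ± 3.16 CPM for NF-YAl and 22.9 ± 6.13 CPM for NF-YAs. Both levels, with and without variant exons, were lower in every NF-YA library than in any Empty library.

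Among the minor CD44 transcripts, NM_001202555, with exon v10 (204 nt) as its only variant exon, had a log2FC of -1.12 ± 0.24 (SE) in NF-YAl (adjusted p = 0.0285, edgeR) and -0.24 ± 0.24 in NF-YAs (adjusted p = 0.658, edgeR). NM_001202557, a short transcript of 2261 nt that could not be placed, had a log2FC of -1.23 ± 0.25 (SE) in NF-YAs (adjusted p = 0.0212, edgeR) and -0.75 ± 0.25 in NF-YAl (adjusted p = 0.123, edgeR). DESeq2 called the first of these in NF-YAl and the second in NF-YAs (adjusted p = 0.000102 and 1.23e-05). The other minor transcripts of the gene held at most 2.17% in any library. CD44 overlaps the antisense RNAs CD44-DT and CD44-AS1, and whether counting took strand into account is not given in the sources used here.

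For CTNND1, the share of transcripts that hold the start codon of isoform 1 was higher in every NF-YAs library than in the other 6. The share of isoform 1 was 40.8, 45.2 and 40.9% for Empty A, B and C, 48.8, 43.1 and 46.7% for the libraries labelled NF-YAl A, B and D and 57.3, 58.9 and 54.4% for NF-YAs A, B and C. NF-YAs lay above both other groups without overlap, whereas NF-YAl overlapped Empty. The mean was 14.6 percentage points higher in NF-YAs than in Empty (two-sided exact permutation p = 0.1, the smallest that 3 against 3 libraries allow) and lower in NF-YAl than in NF-YAs, a difference of -10.7 points (exact permutation p = 0.1). NF-YAl stood 3.89 points above Empty (exact permutation p = 0.2), and 2.58 points without NF-YAl A. NF-YAl D alone differed from Empty by 4.35 points and from NF-YAs by -10.2 points. As levels, isoform 1 transcripts had a mean of 149 ± 15.8 CPM (SD, n = 3) for Empty, 149 ± 14.6 CPM for NF-YAl and 179 ± 6.98 CPM for NF-YAs. Transcripts of the later starts had 190.2 ± 3.76 CPM for Empty, 163 ± 17.97 CPM for NF-YAl and 127 ± 10.5 CPM for NF-YAs. The later starts were thus lower in every NF-YAs library (120 to 139 CPM) than in any Empty library (187 to 194 CPM), while the isoform 1 level was higher in NF-YAs (173 to 187 CPM) than in Empty (136 to 166 CPM).

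Within isoform 1, the transcripts differ by an upstream exon of 119 nt in the 5′ UTR (chr11:57556509-57556627). The share with this exon was 53.6, 65.9 and 55.4% for Empty, 59.9, 57.2 and 66.2% for NF-YAl, with 78.7, 73.7 and 75.5% for NF-YAs. All 3 NF-YAs libraries exceeded the other 6, with a mean 17.7 points above Empty (exact permutation p = 0.1, n = 3 per group). NM_001085460, which carries the exon, had 1356, 2167 and 1590 expected counts for Empty, 1301, 1705 and 1632 for NF-YAl, with 2033, 2174 and 2592 for NF-YAs. On the scaled level its log2FC was 0.72 ± 0.14 (SE) in NF-YAs and 0.011 ± 0.14 in NF-YAl (adjusted p = 0.0177 and 0.986, edgeR). The first of these missed the threshold of 0.01 and passed it with DESeq2 (adjusted p = 1.15e-05), with a filter of 10 counts in every library and without Empty B (log2FC 0.91, adjusted p = 0.00489, edgeR). NM_001085462, which skips the exon, had a log2FC of -0.51 ± 0.16 (SE) in NF-YAs (adjusted p = 0.0972, edgeR). Of the isoform 3 transcripts, NM_001085467 held 17.3, 11.1 and 16.6% for Empty, 13.8, 11.9 and 10.6% for NF-YAl, with 3.30, 7.60 and 9.50% for NF-YAs. Its log2FC of -1.27 ± 0.38 (SE) in NF-YAs and that of NM_001085468, -0.40 ± 0.11, did not pass (adjusted p = 0.0818 and 0.0561, edgeR), and DESeq2 called both (adjusted p = 0.00577 and 0.0035).

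Of the coding exons further along CTNND1, exon A (63 nt, chr11:57581783-57581845) was in 98.1 to 99.2% of the TPM, exon B (87 nt, chr11:57583387-57583473) in 0.948 to 2.52% and exon C (18 nt, chr11:57573933-57573950) in 0 to 0.395%. Exon B was 0.389 points higher in NF-YAs than in Empty without overlap (exact permutation p = 0.1, n = 3 per group), on 74.7 to 152 expected counts per library. Other annotated protein-coding genes overlap CTNND1 on its own strand, so its reads could have been shared with them.

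For ENAH, the share with exon 11a was lower in every NF-YAs library than in any Empty library, and NF-YAl overlapped both groups. The share with exon 11a was 36.7, 35.0 and 29.8% for Empty A, B and C, 18.9, 26.6 and 33.7% for the libraries labelled NF-YAl A, B and D and 22.6, 14.8 and 19.4% for NF-YAs A, B and C. NF-YAl A lay within the NF-YAs range and NF-YAl D within the Empty range. The mean share was 33.8 ± 3.62% (SD, n = 3) for Empty, 26.4 ± 7.37% for NF-YAl and 18.9 ± 3.96% for NF-YAs. NF-YAs differed from Empty by -14.9 points (exact permutation p = 0.1) and NF-YAl from Empty by -7.43 points (exact permutation p = 0.2, n = 3 per group). Between the NF-YA lines, NF-YAl was 7.47 points higher in the mean (exact permutation p = 0.3, adjusted p = 0.579 over the 27 tests of shares). The NF-YAl difference from Empty was -3.69 points without NF-YAl A, -11.1 points without NF-YAl D and -0.148 points with NF-YAl D as its only library. From NF-YAs, NF-YAl differed by 11.2 points without NF-YAl A, 3.83 points without NF-YAl D and 14.7 points with D alone. The transcript with the exon had a level of 52.3, 44.8 and 40.6 CPM for Empty, 28.5, 29.4 and 49.8 CPM for NF-YAl, with 30.4, 16.3 and 24.0 CPM for NF-YAs. Without the exon, the level was 89.3 ± 6.21 CPM (SD, n = 3) for Empty, 100.1 ± 20.5 CPM for NF-YAl and 98.9 ± 4.67 CPM for NF-YAs. The log2FC of the exon 11a transcript NM_001008493 was -0.96 ± 0.28 (SE) in NF-YAs and -0.35 ± 0.28 in NF-YAl (adjusted p = 0.075 and 0.588, edgeR), and that of NM_018212 was 0.15 ± 0.14 in NF-YAs. DESeq2 called NM_001008493 in NF-YAs (adjusted p = 0.00603). Without NF-YAl D, the log2FC of NM_001008493 in NF-YAl was -0.64 (adjusted p = 0.179, edgeR), and with D as the only NF-YAl library it was 0.12 (adjusted p = 0.914, edgeR).

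**Figure D3:**
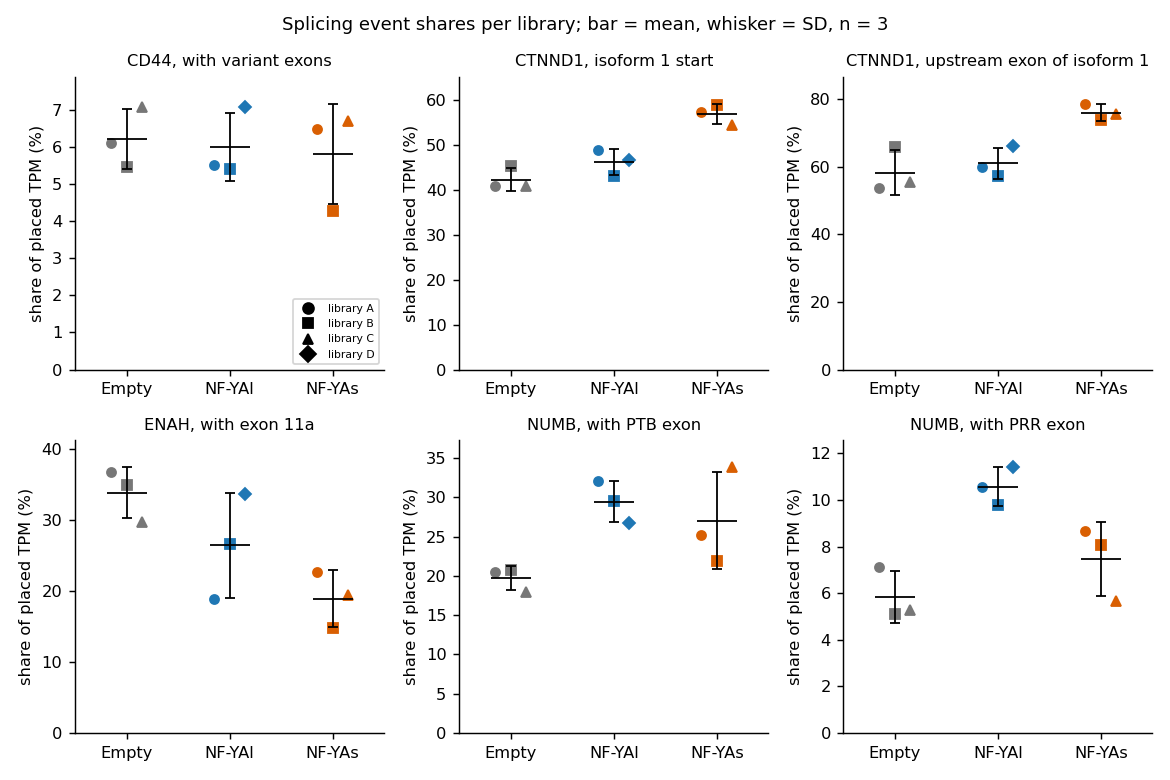
Share of the TPM of the placed transcripts (%, vertical axes from 0) on one side of 6 events in each library, with symbols for the replicate letter, bars for the mean and whiskers for the SD (n = 3). NF-YAs sits apart for the isoform 1 start of CTNND1 (54.4 to 58.9% against 40.8 to 48.8%), ENAH exon 11a is lower in NF-YAs (14.8 to 22.6%) than in Empty (29.8 to 36.7%), and the CD44 groups overlap.

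For NUMB, the share with the PTB exon was higher in every NF-YA library than in any Empty library, and the share with the PRR exon was highest in the NF-YAl libraries. The PTB exon share was 20.5, 20.7 and 18.01% for Empty A, B and C, 32.0, 29.6 and 26.8% for the libraries labelled NF-YAl A, B and D and 25.3, 21.9 and 33.9% for NF-YAs A, B and C. The mean was above Empty by 9.72 points in NF-YAl and 7.27 points in NF-YAs (exact permutation p = 0.1 for each, n = 3 per group), and the NF-YA lines overlapped each other. Without NF-YAs C the PTB difference of NF-YAs was 3.84 points, and with D as the only NF-YAl library that of NF-YAl was 7.03 points. The PRR exon share was 7.10, 5.10 and 5.26% for Empty, 10.6, 9.76 and 11.4% for NF-YAl, with 8.67, 8.07 and 5.67% for NF-YAs. NF-YAl was above both other groups without overlap, and its mean exceeded Empty by 4.75 points and NF-YAs by 3.10 points (exact permutation p = 0.1 for each). NF-YAl D alone exceeded Empty by 5.59 points and NF-YAs by 3.94 points. These shares rested on 79.9 to 162 expected counts per library with the PRR exon and 300 to 533 with the PTB exon.

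The split of NUMB among single transcripts varied within groups. NM_001005744, with the PTB exon and without the PRR exon, held 11.1, 9.74 and 0.81% for Empty, 12.1, 18.1 and 22.6% for NF-YAl, with 14.7, 10.6 and 26.2% for NF-YAs. Its log2FC was 1.26 ± 0.77 (SE) in NF-YAl and 1.46 ± 0.78 in NF-YAs (adjusted p = 0.428 and 0.316, edgeR). NM_001005745, with neither exon, had log2FC of -0.23 ± 0.11 and -0.0096 ± 0.11 (SE) in NF-YAl and NF-YAs (adjusted p = 0.279 and 0.978, edgeR). NM_001005743, with both exons, had 98.0 and 110 expected counts in NF-YAl A and B, 2.53 in NF-YAl D and no more than 59.8 in any other library. NM_003744, with the PRR exon alone, had 44.6, 42.4 and 159 expected counts in NF-YAl A, B and D. It had 20.1 to 112 in Empty and 92.3 to 124 in NF-YAs. The PRR exon share of NF-YAl thus came mainly from one transcript in A and B and from the other in D.

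For FGFR2, on the minus strand of chromosome 10 (chr10:123237846-123357972), the choice between the IIIb exon (148 nt, chr10:123278196-123278343) and the IIIc exon (145 nt, chr10:123276833-123276977) could not be read. The transcripts placed on this choice, NM_022970 with IIIb and NM_000141 with IIIc, had 0 counts in all 9 libraries, which allows up to 3 counts per library. NM_001144913, a transcript of 2781 nt with most of the reads, could not be placed by its length. It was the FGFR2 transcript that passed the filter, with a log2FC of 0.027 ± 0.65 and -0.40 ± 0.66 (SE) in NF-YAl and NF-YAs (adjusted p = 0.994 and 0.815, edgeR).

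Over the 50 transcripts, 25 passed the filter on low counts for the test of level and 24 for the test of usage. Of the 25, 1 was called in NF-YAl against Empty, 1 in NF-YAs against Empty and 0 between the NF-YA lines, beside 2.89%, 3.77% and 0.511% of all 34671 transcripts. Between the NF-YA lines, 5 of the 25 had an unadjusted p under 0.05 (edgeR), as did 18.4% of all transcripts. DESeq2 called 3 of the 25 there (NM_001001391, NM_001202555 and NM_001085460), beside 3198 of all 34671 transcripts. None of the 24 was called for usage in any of the comparisons (diffSpliceDGE of edgeR), where 0.0545%, 0.0623% and 0.0156% of 25666 transcripts were called in NF-YAl against Empty, NF-YAs against Empty and between the NF-YA lines. At an unadjusted p under 0.05, 2, 3 and 5 of the 24 were found in these comparisons, beside 4.17%, 4.98% and 4.69% of all. The 2 in NF-YAl against Empty were NM_001202556 (at most 7.29 expected counts in Empty) and NM_001206891 (at most 0.1 in NF-YAl). Both were also among the 5 between the lines, with NM_001005743 (at most 8.97 in NF-YAs), NM_001085460 and NM_001085467. NM_001202556, NM_001206891 and NM_001005743 thus each had a group with few or no counts. Of the 24, limma diffSplice called none, with the lowest adjusted p at 0.0236 for NM_001085460 in NF-YAs against Empty. The lowest adjusted p by diffSpliceDGE was 0.357, 0.358 and 0.549.

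The event shares were tested in 27 comparisons, 9 events in 3 comparisons each, and their lowest adjusted p was 0.27 (exact permutation, n = 3 per group). Events were placed for these genes alone, so no share over all genes stands beside the groups that did not overlap. The events of one gene share transcripts and are not independent. For single transcripts, the IsoPct of the groups did not overlap for 4, 7 and 5 of the 24 in NF-YAl against Empty, NF-YAs against Empty and between the NF-YA lines, beside 14.6%, 17.6% and 13.7% of all 25666.

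**Figure D4:**
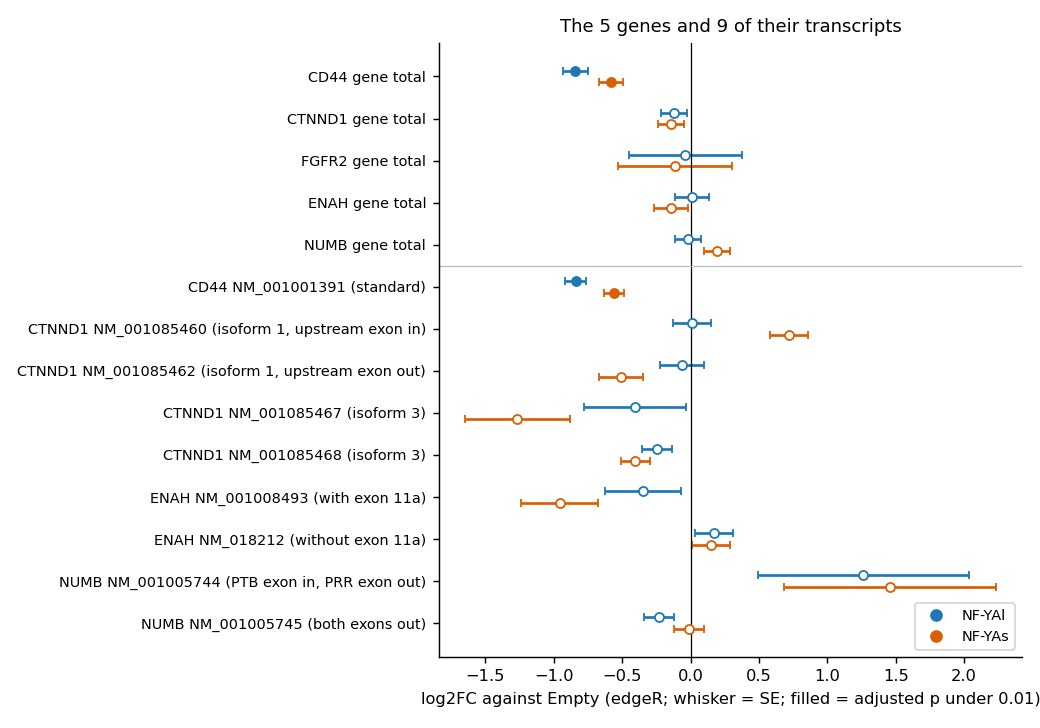
Log2FC against Empty (horizontal axis, whiskers for the SE) of the 5 gene totals above the grey line and of 9 transcripts below it, for NF-YAl and NF-YAs, filled where the adjusted p was under 0.01. The filled points are the CD44 total (-0.84 and -0.58) and its standard transcript NM_001001391 (-0.84 and -0.56).

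Of the 24 genes of the list of splicing regulators, 23 were tested, and 2 rose and 0 fell in NF-YAl, 2 rose and 1 fell in NF-YAs, and 1 was higher and 0 were lower in NF-YAl than in NF-YAs. Over all genes, 19.6% were called in NF-YAl against Empty, 22.6% in NF-YAs against Empty and 1874 of 17108 between the lines. With D as the only NF-YAl library, 24 of the list were tested. Their median log2FC was then 0.30 for NF-YAl against Empty and 0.095 against NF-YAs, beside -0.0093 and -0.0054 over all genes. The median log2FC of the list with all libraries was 0.13 for NF-YAl against Empty and 0.12 for NF-YAs, beside 0.011 and -0.0026 over all genes. ESRP2, the epithelial splicing factor with the higher level of the pair, had 34.7, 32.5 and 31.6 CPM for Empty A, B and C, 26.5, 39.5 and 42.1 CPM for the libraries labelled NF-YAl A, B and D and 19.1, 22.3 and 20.6 CPM for NF-YAs A, B and C. It fell in NF-YAs (log2FC -0.67 ± 0.15 SE, adjusted p = 0.00476, edgeR), not in NF-YAl (0.13 ± 0.15, adjusted p = 0.547, edgeR), and differed between the lines (0.81 ± 0.15, adjusted p = 0.00318, edgeR). The groups with the lowest ESRP2 and the lowest ENAH exon 11a share were both NF-YAs, and a relation between them was not tested. ESRP1 was low, at no more than 39 counts in any library. It had 0.0795 to 0.236 CPM in Empty, 0.053, 0.818 and 1.60 CPM in NF-YAl A, B and D and 0.348 to 1.29 CPM in NF-YAs. The log2FC was 2.49 ± 0.85 (SE) in NF-YAl and 2.56 ± 0.86 in NF-YAs (adjusted p = 0.0425 and 0.0358, edgeR). With D as the only NF-YAl library, the log2FC of ESRP1 was 3.39 in NF-YAl and stayed at 2.56 in NF-YAs. RBFOX2 (167 to 214 CPM) and QKI (91.2 to 160.2 CPM) overlapped among the groups, with log2FC in NF-YAl and NF-YAs of -0.12 ± 0.11 and -0.078 ± 0.11 (SE) for RBFOX2 and 0.17 ± 0.17 and 0.16 ± 0.17 for QKI. The highest QKI level was that of NF-YAl D. With D as the only NF-YAl library, the log2FC of QKI was 0.59 in NF-YAl against Empty and 0.43 against NF-YAs. For RBFOX2 these values were -0.29 and -0.22.

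NOVA2, a neuronal splicing factor, rose in both lines, by a log2FC of 2.03 ± 0.24 (SE) in NF-YAl and 1.56 ± 0.25 in NF-YAs (adjusted p = 7.59e-05 and 0.000457, edgeR), from 1.19 to 1.76 CPM in Empty. PTBP2, the neuronal relative of the polypyrimidine tract-binding protein, rose in NF-YAl (log2FC 0.74 ± 0.16 SE, adjusted p = 0.00345, edgeR) and had 0.57 ± 0.16 in NF-YAs (adjusted p = 0.0131, edgeR). TRA2A, a splicing activator, rose in NF-YAs (log2FC 0.45 ± 0.11 SE, adjusted p = 0.00846, edgeR). With D as the only NF-YAl library, the log2FC of TRA2A in NF-YAl was 0.41. That of PTBP2 in NF-YAs stayed at 0.57, since the libraries compared were the same.

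Of the genes named here from the lists of regulators and partners, 17 were called in NF-YAl against Empty and 7 between the lines. With D as the only NF-YAl library, all of these kept their sign. NF-YAl D is also part of the fit that picked them, so agreement in sign is partly built in. Sizes moved both ways in NF-YAl against Empty. The log2FC with D alone was 1.28 for MMP9, 1.55 for NOVA2 and -1.89 for CDH3, against 1.49, 2.03 and -1.63 with all libraries. EVL and NOTCH3 had 22.7 and 2.75 CPM in NF-YAl D, nearer to Empty than in NF-YAl A and B. ESRP1 and QKI, which were not among the 17, had a larger log2FC with D alone, as given above. The 21 called in NF-YAs against Empty rest on the same libraries in both fits. The agreement of their log2FC was all but fixed in advance and says nothing. Their p-values could still move, since the spread is estimated over all libraries of a fit.

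**Figure D5:**
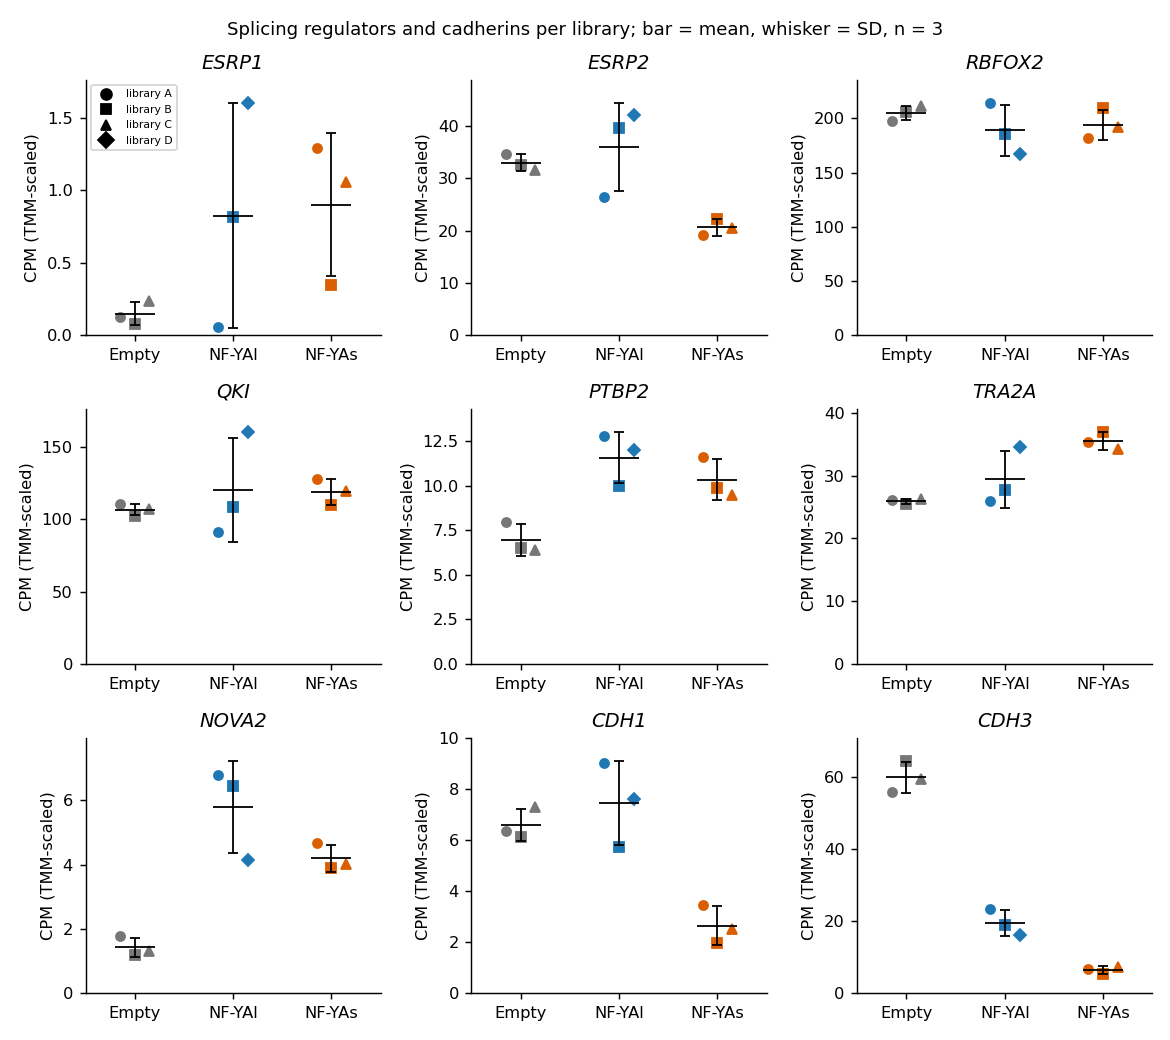
TMM-scaled CPM (vertical axes from 0) of 7 splicing regulators and of the cadherins CDH1 and CDH3 in each library by group, with symbols for the replicate letter, bars for the mean and whiskers for the SD (n = 3). ESRP2 sits at 19.1 to 22.3 CPM in NF-YAs against 31.6 to 34.7 CPM in Empty, and CDH3 at 5.18 to 7.33 CPM against 55.8 to 64.5 CPM.

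Several cadherins, the partners of p120-catenin, changed, and the CTNND1 gene total passed no test. Of 15 CTNND1 partners tested, 1 rose and 3 fell in NF-YAl, 2 rose and 4 fell in NF-YAs, and 3 were higher and 0 lower in NF-YAl than in NF-YAs. Over all genes, 19.6% were called in NF-YAl against Empty, 22.6% in NF-YAs against Empty and 1874 of 17108 between the lines. CDH3, P-cadherin, had 55.8, 64.5 and 59.4 CPM for Empty, 23.3, 18.9 and 16.2 CPM for NF-YAl, with 6.52, 5.18 and 7.33 CPM for NF-YAs. Its log2FC was -1.63 ± 0.15 (SE) and -3.24 ± 0.16 in NF-YAl and NF-YAs (adjusted p = 1.06e-05 and 2.36e-07, edgeR). CDH1, E-cadherin, was low in Empty (6.12 to 7.28 CPM) and fell in NF-YAs to 1.94 to 3.45 CPM (log2FC -1.33 ± 0.23 SE, adjusted p = 0.000931, edgeR), whereas NF-YAl had 5.73 to 9.02 CPM (log2FC 0.17 ± 0.22 SE, adjusted p = 0.585, edgeR). CDH11, a mesenchymal cadherin, fell in both lines (log2FC -1.44 ± 0.22 and -1.12 ± 0.21 SE, adjusted p = 0.000351 and 0.00158, edgeR). CTNND2, the neural relative of CTNND1, rose in both (log2FC 2.60 ± 0.27 and 2.40 ± 0.27 SE, adjusted p = 2.64e-05 and 3.99e-05, edgeR).

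Among the 14 tested partners of CD44, 4 rose and 2 fell in each line, beside 19.6% (NF-YAl) and 22.6% (NF-YAs) of all genes called. MMP9, a protease that docks on CD44, rose from 0.63 to 0.755 CPM for Empty to 1.64 to 2.17 CPM for NF-YAl and 4.90 to 6.54 CPM for NF-YAs (log2FC 1.49 ± 0.25 and 3.03 ± 0.24 SE, adjusted p = 0.000702 and 3.25e-06, edgeR). MMP14, a membrane protease that cleaves CD44, rose in both (log2FC 0.93 ± 0.13 and 0.83 ± 0.13 SE, adjusted p = 0.000208 and 0.000378, edgeR). HAS2, which makes the CD44 ligand hyaluronan, rose in NF-YAs (log2FC 0.77 ± 0.095 SE, adjusted p = 7.08e-05, edgeR) and had -0.20 ± 0.095 in NF-YAl (adjusted p = 0.123, edgeR). HYAL1, which degrades hyaluronan, fell in NF-YAs (log2FC -1.44 ± 0.32 SE, adjusted p = 0.00372, edgeR).

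Of the 14 tested partners of FGFR2, 2 rose and 4 fell in NF-YAl and 3 rose and 3 fell in NF-YAs. The shares of all genes called were 19.6% and 22.6%. FGF1, a ligand of both FGFR2 forms, fell in both lines (log2FC -2.16 ± 0.18 and -1.46 ± 0.17 SE, adjusted p = 4.97e-06 and 5.15e-05, edgeR). The adaptor SHC1 also fell in both, by log2FC of -0.94 ± 0.089 and -1.02 ± 0.089 (SE) in NF-YAl and NF-YAs (adjusted p = 1.42e-05 and 6.61e-06, edgeR). Of the feedback inhibitors of the pathway, SPRY2 fell in both (log2FC -0.84 and -0.77 ± 0.13 SE, adjusted p = 0.000362 and 0.000578, edgeR), and SPRY4 rose in NF-YAs (log2FC 0.82 ± 0.18 SE, adjusted p = 0.00382, edgeR).

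Of the 13 tested partners of ENAH, 2 rose and 3 fell in NF-YAl and 1 rose and 3 fell in NF-YAs. The shares of all genes called were 19.6% and 22.6%. EVL, a member of the same Ena/VASP family, rose in both lines (log2FC 0.59 ± 0.14 and 0.64 ± 0.14 SE, adjusted p = 0.00766 and 0.00453, edgeR). RAPH1, also called lamellipodin, which recruits the family to the leading edge, fell in both (log2FC -0.54 ± 0.10 and -0.58 ± 0.10 SE, adjusted p = 0.00187 and 0.00107, edgeR). The focal adhesion protein LPP rose in NF-YAl alone among the tests against Empty (log2FC 0.67 ± 0.11 SE, adjusted p = 0.000542, edgeR) and differed between the lines. TES, another focal adhesion protein, fell in NF-YAs (log2FC -0.79 ± 0.15 SE, adjusted p = 0.00166, edgeR) and had -0.53 ± 0.15 in NF-YAl (adjusted p = 0.0181, edgeR).

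Of the 18 tested partners of NUMB, 4 rose and 1 fell in NF-YAl and 2 rose and 2 fell in NF-YAs. The shares of all genes called were 19.6% and 22.6%. The Notch ligand JAG2 had 8.85, 12.1 and 8.97 CPM for Empty, 17.7, 25.6 and 25.5 CPM for NF-YAl, with 4.42, 3.43 and 3.27 CPM for NF-YAs. It rose in NF-YAl (log2FC 1.20 ± 0.18 SE, adjusted p = 0.000397, edgeR) and fell in NF-YAs (log2FC -1.43 ± 0.20 SE, adjusted p = 0.000192, edgeR). The receptor NOTCH2 rose in both (log2FC 0.39 ± 0.087 and 0.74 ± 0.087 SE, adjusted p = 0.00476 and 5.26e-05, edgeR). NOTCH3 rose in NF-YAl (log2FC 1.68 ± 0.36 SE, adjusted p = 0.00402, edgeR) and had 0.95 ± 0.37 in NF-YAs (adjusted p = 0.0649, edgeR). HES1, a Notch target gene, rose in both (log2FC 0.79 ± 0.17 and 0.88 ± 0.17 SE, adjusted p = 0.00412 and 0.00192, edgeR).

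Beside these values, the epithelial list had 13 tested genes, of which 1 rose and 6 fell in NF-YAl and 1 rose and 9 fell in NF-YAs. For this list and those below, the shares of all genes called were 19.6% in NF-YAl and 22.6% in NF-YAs. The gene that rose was EPCAM, and KRT8, KRT18, KRT19, CLDN4, ELF3 and CDH3 fell in both lines. The median log2FC of the list was -0.42 in NF-YAl and -0.78 in NF-YAs. Of 15 tested mesenchymal genes, 3 rose and 2 fell in NF-YAl (median 0.21), and 7 rose and 4 fell in NF-YAs (median 0.55). VIM, ZEB2 and SNAI2 were among those that rose in NF-YAs and FN1 and CDH11 among those that fell. Fitted with D as the only NF-YAl library, the median log2FC in NF-YAl was -0.053 for the epithelial list and 0.076 for the mesenchymal list. Over all genes it was -0.0093. In that fit, the median log2FC of the CTNND1 partners in NF-YAl against NF-YAs was 0.17, beside -0.0054 over all genes. The part of these shifts in the event shares was not tested. Of 26 other genes known to be spliced differently between the cell states, 4 rose and 3 fell in NF-YAl and 7 rose and 3 fell in NF-YAs as gene totals. These counts stand beside 19.6% and 22.6% of all genes called. Of their 106 transcripts, 6, 8 and 1 were called by level in NF-YAl against Empty, NF-YAs against Empty and between the NF-YA lines (edgeR), beside 2.89%, 3.77% and 0.511% of all transcripts. By diffSpliceDGE of edgeR, 0 were called for usage in any comparison, with the lowest adjusted p at 0.0266. At an unadjusted p under 0.05, 12 of the 106 were found in each, beside 4.17%, 4.98% and 4.69% of all.

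The genes whose log2 CPM followed each of the 5 most closely over the 9 libraries are given as a description with no test, over libraries that share their groups. For CD44 they were PTPRH, INTS6L and FLNA, with Pearson r of 0.994, 0.990 and 0.990. For CTNND1 they were TRPM4, ACAP3 and TOB2 (0.975, 0.967 and 0.958), for ENAH USP38, FOS and SYDE2 (0.929, 0.919 and 0.914), for NUMB ABCA13, ING5 and CACNG8 (0.974, 0.965 and 0.959) and for FGFR2 CD96, AS3MT and XPR1 (0.820, 0.808 and 0.808). FLNA, which encodes the actin crosslinker filamin A, had 2943 to 3425 CPM for Empty, 1244 to 1457 CPM for NF-YAl and 1541 to 1766 CPM for NF-YAs, in the same order of groups as CD44.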

How the data were processed

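Groups and letters come from the labels. The authors aligned reads to the human transcriptome (GRCh37/hg19) with bowtie2 within RSEM, and deposited per library the expected counts (RSEM's estimated counts, with reads shared between transcripts and no normalization), the TPM, scaled by RSEM to a fixed total and corrected for effective length, and the percent of the gene's TPM held by each transcript (IsoPct). Only reads on human transcripts are counted. After rounding, expected counts entered edgeR 4.0.16 under R 4.3.3 (filterByExpr, TMM, 3 groups in 1 quasi-likelihood fit), for genes and for transcripts, and transcript usage was tested with diffSpliceDGE of the same package. SEs are |log2FC| over the square root of F. All p-values were adjusted by Benjamini-Hochberg over every gene or transcript tested, and a call needed an adjusted p under 0.01. CPM are TMM-scaled counts on the scaled library sizes.

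RefSeq transcripts were placed on splicing events by matching their deposited lengths to GENCODE exons of GRCh37. With 1 constant length offset per gene, 6 of 8 transcripts of CD44, 22 of 22 of CTNND1, 2 of 13 of FGFR2, 2 of 2 of ENAH and 5 of 5 of NUMB matched. Event shares were compared with two-sided exact permutation tests. On simulated counts with 200 changed features, edgeR recovered 200 genes and 200 transcripts. For usage, diffSpliceDGE called 117 of the 200 changed transcripts and any transcript of their genes in 198 of 200, and limma diffSplice called 199 and 199. The changed features were well counted and changed by more than CD44 did here. All features had the same dispersion and no error of read assignment. The recovery therefore does not extend to smaller changes or to minor transcripts.

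The genes, lists and tests were chosen with earlier results of these data known. The genes named besides the 5 were ESRP1, ESRP2, RBFOX2, QKI and any called gene of the splicing regulator list, up to 4 called partners per gene with the largest |log2FC| and a mean of at least 1 CPM, and the 3 genes with a mean of at least 5 CPM whose log2 CPM (prior count 1) had the highest Pearson r with each of the 5. The alternatives were DESeq2 1.42.0, RLE scaling, other filters, a fit of only the 2 groups compared, limma 3.58.1 (diffSplice on voom values), the replicate letter as a block, expected counts in place of TPM for shares, leaving out each library and, chosen after the data were seen, NF-YAl D as the only NF-YAl library. Plots used matplotlib 3.10.9 under Python 3.11.15. Some genes of the marker lists are not reported here.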

Additional observations from a re-analysis of the deposited data

Results flagged for a closer look

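ESRP2, CDH1, CDH3, LPP, JAG2, MMP9 and HAS2 were singled out because their levels differed between NF-YAl and NF-YAs in the direct edgeR fit, so that their changes against the shared Empty libraries differed. The log2FC of NF-YAl against NF-YAs was 0.81 for ESRP2, 1.5 for CDH1, 1.61 for CDH3, 0.77 for LPP, 2.63 for JAG2, -1.53 for MMP9 and -0.98 for HAS2. For JAG2, all 3 NF-YAl libraries lay above and all 3 NF-YAs libraries below the Empty libraries. No gene total and no transcript of CD44, CTNND1, FGFR2, ENAH or NUMB met this criterion.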

How the results depend on the processing

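The fall of CD44 was called under all 16 alternatives in both lines, with log2FC from -0.88 to -0.80 in NF-YAl and -0.63 to -0.55 in NF-YAs. Of the 15 alternatives for its standard transcript NM_001001391, 13 kept the call in NF-YAl and 8 in NF-YAs. With expected counts in place of TPM, every event share difference moved by less than the pooled SD of its 2 groups. That criterion says little here, since both measures rest on the same read assignment and differ only in the scaling by length. Leaving 1 library out of 3 cannot move a mean past its SD, so that criterion says nothing there, and the values are given beside the shares of CD44, CTNND1, ENAH and NUMB.

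Residual correlations of same-letter libraries ranged from -0.0684 to 0.233, and those of libraries with different letters from -0.211 to 0.150. These ranges overlap and do not settle whether the replicate letters pair the libraries. With the letter as a replicate block, 4160, 5316 and 2813 genes, 0, 29 and 0 transcripts by level and 5, 10 and 0 by usage were called in NF-YAl against Empty, NF-YAs against Empty and between the NF-YA lines. Without the block the counts were 3346, 3865 and 1874 genes, 1002, 1307 and 177 transcripts by level and 14, 16 and 4 by usage. Not every library correlated best with its own letter. At an unadjusted p under 0.05 the block gave 7114, 8131 and 6178 transcripts by level (edgeR) and 1136 by usage in the last comparison. The cause was not tested.

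In the same order of comparisons, fits of only the groups compared called 2167, 6036 and 1033 genes. DESeq2 called 2871 genes in NF-YAl against NF-YAs and 4435, 5097 and 3198 transcripts. The filter of 10 counts in every library called 1601 and 549 transcripts by level in NF-YAl against Empty and between the NF-YA lines, and 2 by usage in the latter, where no filter gave 7. limma diffSplice called 37, 67 and 11 transcripts. Leaving out 1 library called 2009 to 4274, 2358 to 5023 and 830 to 2754 genes, 164 to 907, 230 to 1522 and 2 to 106 transcripts by level and 9 to 22, 10 to 26 and 4 to 19 by usage. With D as the only NF-YAl library, 6083 genes were called in NF-YAs against Empty, 147 and 15 transcripts by level in NF-YAl against Empty and against NF-YAs, and 53 and 57 by usage. Shares of NF-YAl D differed from Empty by 0.861 points for the CD44 variant exons, -0.148 for ENAH exon 11a and 7.03 for the NUMB PTB exon, and from NF-YAs by -9.78 points for the upstream exon of CTNND1 and 14.7 for ENAH exon 11a.

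The log2FC that changed sign passed no test with all libraries. With the block, where NF-YAl rests on NF-YAl A and B, its log2FC was -0.063 for ENAH, 0.060 for FGFR2, 0.065 for NUMB and 0.10 for NM_001085462. For NM_001005745 in NF-YAs it was 0.0037 with RLE, 0.0035 with DESeq2 and 0.0012 with the filter of 10 counts. In the fit with D as the only NF-YAl library, the log2FC was 0.10 for FGFR2, -0.027 for NM_001085460 and 0.12 for NM_001008493 in NF-YAl, and -0.12 for CTNND1 in NF-YAl against NF-YAs. With 1 library left out, log2FC in NF-YAl ranged from -0.067 to 0.14 for ENAH, -0.27 to 0.39 for FGFR2, -0.094 to 0.052 for NUMB, -0.10 to 0.20 for NM_001085460 and -0.16 to 0.092 for NM_001085462. In NF-YAs they ranged from -0.69 to 0.31 for FGFR2 and -0.077 to 0.042 for NM_001005745, and in NF-YAl against NF-YAs from -0.011 to 0.098 for CTNND1 and -0.17 to 0.65 for FGFR2.

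Depth limits FGFR2 and the minor transcripts. RSEM divides reads between transcripts that share most of their sequence, so the error of that assignment adds to the spread between libraries.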
